A study of Drosophila melanogaster and Drosophila miranda with 8 samples.

Results

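CLAMP occupancy was mapped by ChIP-seq in wild type female larvae of D. miranda at the third instar, and 2 replicate ChIP libraries gave the peaks described here. All rows of both deposited peak lists were taken, which made 3577 peaks in replicate 1 and 12523 in replicate 2, or 16100 of the 33972 peaks in the 4 ChIP lists of the study. The other 2 lists came from wild type female larvae of D. melanogaster at the same stage, immunoprecipitated with the same anti-CLAMP antibody. D. miranda flies were kept at 18 °C and D. melanogaster flies at 21 °C, so species and temperature cannot be told apart. Each library came from pooled whole larvae, so occupancy in a single tissue cannot be read from it. Each ChIP library had an input library, and inputs enter only through the authors' peak calls. The labels name replicates but not separate cultures, so differences between them may be technical.

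CLAMP is a zinc finger protein that binds GA-rich DNA. In D. melanogaster it helps to bring the MSL complex, which raises transcription of the single male X, to its entry sites on that chromosome. CLAMP is also present in females, which do not assemble the MSL complex, so the libraries described here concern CLAMP in the absence of that complex. D. miranda has X chromosome arms of different age. XL is Muller element A, the ancestral X of Drosophila, XR carries Muller D fused to element A, and neoX is Muller C, the most recent of them to become X-linked. The autosomes are chromosome 2 (Muller E), chromosome 4 (Muller B) and chromosome 5 (Muller F), the small dot chromosome, which is largely heterochromatic in Drosophila. Coordinates below are those of the D. miranda assembly used by the study, counted from 1. Genes were not assigned to peaks and no sequence is shown, because no D. miranda annotation or genome was used here.

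The lists differ in size, so each was read on its own. Replicate 1 held 26.2 peaks per Mb (exact Poisson 95% interval 25.3 to 27.0) and replicate 2 held 91.6 per Mb (90.0 to 93.2) over 136.68 Mb, the summed distance to the last peak of each chromosome. Peaks covered 3.84% of that length in replicate 1 and 14.2% in replicate 2. The study's methods list more aligned reads for the ChIP library of replicate 2 than for that of replicate 1, but fewer for its input. The part of read depth in the difference was not tested, and depth cannot be read from the lists. Neither list held overlapping or repeated peaks. Poisson, binomial and ratio intervals here cover counting error only, and they are not adjusted for their number.

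The question for D. miranda was whether CLAMP peaks are denser on the X chromosomes, old and new, than on autosomes. Counted over all widths, they were close to even. In replicate 1 the density of XL, XR and neoX together was 26.9 peaks per Mb against 25.4 on autosomes, a ratio of 1.06 (exact conditional interval 0.991 to 1.13), and in replicate 2 it was 93.8 against 89.1, a ratio of 1.05 (1.02 to 1.09). Of the single chromosomes, only XR in replicate 2 had an interval above 1, with a ratio of 1.07 (1.02 to 1.12). The same chromosome stood at 1.03 (0.947 to 1.12) in replicate 1. neoX, the youngest, had ratios of 1.07 (0.968 to 1.18) and 1.04 (0.989 to 1.10), and XL, the oldest, 1.09 (0.989 to 1.19) and 1.04 (0.988 to 1.09). The order of the 3 was thus different in each replicate, and their intervals overlapped.

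In replicate 2 peak width separated the X chromosomes from autosomes more clearly than the number of peaks did. In replicate 1 it did so less clearly. Peaks fell into 3 width classes, chosen after the widths were seen. Peaks of exactly 1000 bp, the narrowest width in either list, made up 31.1% of replicate 1 and 14.2% of replicate 2. No peak was narrower, and whether 1000 bp is a floor set in peak calling was not tested. Peaks of 2000 bp or more, called wide below, made up 12.9% (461 peaks) and 14.6% (1825 peaks). The rest lay between these widths.

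Wide peaks were denser on the X chromosomes. In replicate 2 XL held 15.2, XR 14.9 and neoX 14.0 wide peaks per Mb against 11.8 on autosomes. The ratios were 1.29 (1.14 to 1.47), 1.26 (1.12 to 1.42) and 1.19 (1.04 to 1.36), so that all 3 intervals lay above 1. In replicate 1 XL held 3.71, XR 3.25 and neoX 4.17 per Mb against 3.05 on autosomes. There the ratios were 1.21 (0.927 to 1.58), 1.07 (0.827 to 1.37) and 1.37 (1.05 to 1.77), and only the interval of neoX lay above 1. For the 3 X chromosomes together the ratio was 1.20 (0.991 to 1.45) in replicate 1 and 1.25 (1.14 to 1.38) in replicate 2. In each replicate 32 such ratios were computed over X chromosomes, width classes and sets of autosomes, and 12 more at other width limits.

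Peaks of 1000 bp did not share this pattern. Their X to autosome ratio was 1.09 (0.963 to 1.22) in replicate 1 and 0.912 (0.830 to 1.002) in replicate 2. For the class between, it was 1.02 (0.929 to 1.11) and 1.05 (1.004 to 1.09). Wide peaks accordingly took a larger share of X peaks in replicate 2, 15.7% (exact binomial interval 14.8 to 16.6) against 13.2% (12.3 to 14.1) on autosomes. In replicate 1 the shares were 13.6% (12.1 to 15.2) and 12.0% (10.5 to 13.7), and these intervals overlapped.

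**Figure D1:**
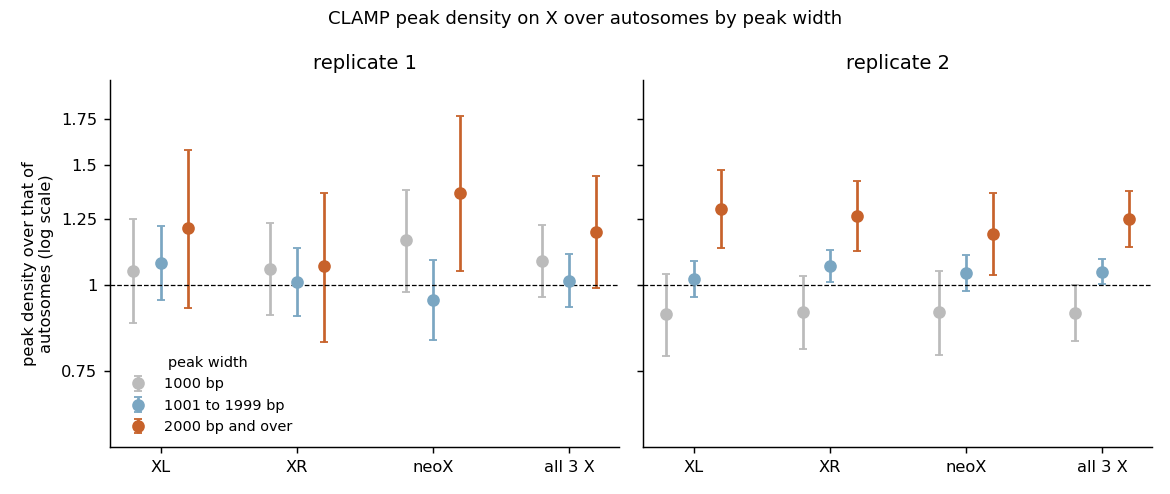
Peak density of XL, XR, neoX and all 3 together divided by that of chromosomes 2, 4 and 5 (vertical axis, log scale), for 3 classes of peak width in each replicate; bars are exact 95% intervals and the dashed line marks equal density. The wide class stands at 1.20 in replicate 1 and 1.25 in replicate 2 for all 3 X chromosomes, and the narrowest class at 1.09 and 0.912.

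The ratio depended on where the width limit was set. At 1500 bp the X to autosome ratio was 1.06 (0.951 to 1.17) in replicate 1 and 1.16 (1.10 to 1.22) in replicate 2. At 2500 bp it was 1.45 (0.975 to 2.18) on 70 X peaks and 1.44 (1.25 to 1.66) on 518. At 3000 bp it was 1.52 (0.854 to 2.78) on 35 X peaks and 1.47 (1.20 to 1.81) on 257. The point estimates rose with the limit in both replicates, while the replicate 1 intervals at each of these limits included 1. The limits share peaks and are not separate measurements.

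Among autosomes the dot chromosome had the highest density of wide peaks, but its interval lay above those of chromosomes 2 and 4 in replicate 1 only. Chromosome 5 held 15 wide peaks in replicate 1, or 8.46 per Mb (4.74 to 14.0), and 31 in replicate 2, or 17.5 per Mb (11.9 to 24.8), the highest densities of any chromosome, though the intervals overlapped those of neoX in both replicates. Chromosome 4 had the lowest, 2.53 (1.99 to 3.19) and 11.04 (9.86 to 12.3). The point estimates of XL, XR and neoX each exceeded chromosome 2, at 3.21 (2.63 to 3.89) and 12.1 (10.9 to 13.3), in both replicates. In replicate 1 the intervals of all 3 overlapped that of chromosome 2, and in replicate 2 that of neoX (12.4 to 15.7) did, while those of XL and XR did not. Without chromosome 5 among the autosomes, the X ratio of wide peaks became 1.26 (1.04 to 1.53) in replicate 1 and 1.27 (1.15 to 1.40) in replicate 2.

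The same count in D. melanogaster gave wide-peak ratios of 1.01 (0.867 to 1.17) in replicate 1 and 1.21 (1.05 to 1.39) in replicate 2, between its X and its autosomes. Its ratios over all peaks were 0.922 (0.873 to 0.974) and 0.999 (0.945 to 1.06). The D. melanogaster replicates differed from each other by more than the D. miranda ones did, and the wide-peak intervals of the 2 species overlapped.

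Along the chromosomes, most windows held similar numbers of peaks. The 133 whole 1-Mb windows held 12 to 56 peak centers in replicate 1, with a median of 26, and 47 to 121 in replicate 2, with a median of 92. Window counts averaged 26.2 ± 5.49 (SD over windows) and 91.7 ± 12.4. The variance of the counts over their mean, which is 1 for counts that scatter as Poisson counts do, was 1.15 in replicate 1 and 1.69 in replicate 2. XL was the most even chromosome in both, at 0.521 and 0.943. The least even was neoX in replicate 1, at 2.34, and chromosome 4 in replicate 2, at 2.51.

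A cluster at the start of neoX was the densest window of replicate 1. Bases 1 to 1000000 held 56 centers, of which 27 lay in the first 300 kb, and 13 of the 56 peaks were wide. Replicate 2 had 111 centers there, sixth among its windows, and 27 of them were wide, the most in any window of that list. Of the replicate 1 centers in this window, 28 of 56 lay inside a replicate 2 peak. With neoX cut into 5 equal parts, the first stood at 1.34 times the chromosome's mean density in replicate 1 and 1.07 times in replicate 2, and the last at 0.823 and 0.911 times.

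Chromosome 2 held the next dense windows. Bases 13000001 to 14000000 had 41 centers in replicate 1 and 112 in replicate 2, with 15 and 23 wide peaks. Bases 7000001 to 8000000 had 39 and 108. Both windows were thus above the median in each list.

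The sparsest place in both replicates was a stretch of chromosome 4. Bases 5000001 to 6000000 held 12 centers in replicate 1 and 52 in replicate 2, and bases 6000001 to 7000000 held 16 and 47. These were the 2 lowest windows of replicate 2, and in replicate 1 the lowest and a tie for second lowest. Wide peaks were few there too, 1 and 1 in replicate 1 and 8 and 1 in replicate 2. How much of these windows could be aligned uniquely was not tested.

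Most other extreme windows did not rank alike in both lists. The window tied for second lowest in replicate 1, bases 27000001 to 28000000 of chromosome 2, had 16 centers there and 92 in replicate 2, the median of that list. Bases 20000001 to 21000000 of chromosome 2 were the third lowest in replicate 2 with 66 and held the median 26 in replicate 1. The densest replicate 2 windows were on XR, at bases 15000001 to 16000000 with 121 centers and, tied at 113, at 8000001 to 9000000, 12000001 to 13000000 and 25000001 to 26000000. Replicate 1 had 21, 28, 20 and 31 centers in these 4, so that the last was above the median of 26 by 5 and the first and the third were below it. The SD of replicate 1 counts over windows was 5.49, so these distances from the median were not large. Of the 10 densest among the 133 windows of each list 2 were shared, and of the 10 sparsest also 2, with ties broken by position. The number that unrelated lists would share was not computed, so neither agreement nor its lack can be read from these counts.

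**Figure D2:**
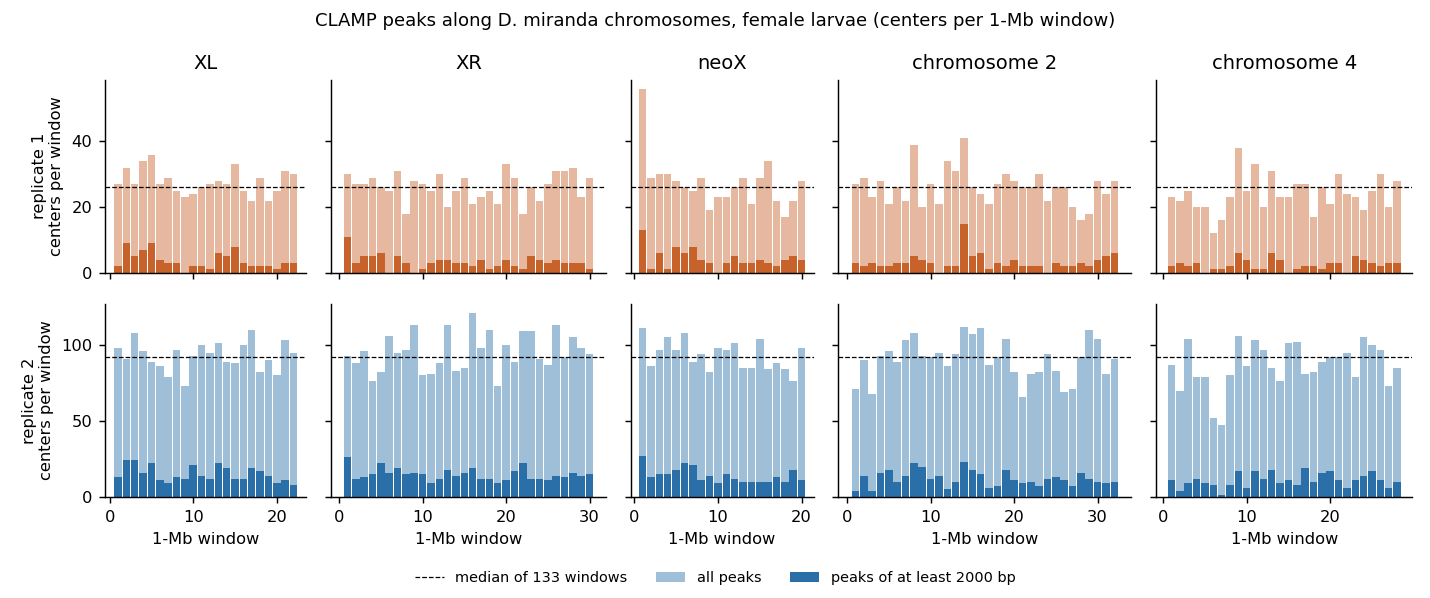
Peak centers in each whole 1-Mb window (vertical axis) along XL, XR, neoX and chromosomes 2 and 4 (horizontal axis, window number), replicate 1 above and replicate 2 below; pale bars are all peaks, dark bars the wide peaks and dashed lines the median of 133 windows. The first neoX window reaches 56 in replicate 1, and the low pair on chromosome 4 falls to 12 and 16 in replicate 1 and 52 and 47 in replicate 2; chromosome 5 has a single whole window, with 34 and 93, and is not drawn.

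Peak-free stretches were longer in replicate 1, the shorter list, than in replicate 2. Windows of 100 kb held 2.62 centers on average in replicate 1 and 9.16 in replicate 2, so differences in stretch length partly reflect list size. The longest in replicate 1 ran for 359 kb on chromosome 4, bases 17541985 to 17901336, and held 26 replicate 2 peaks. On the other chromosomes the longest ran from 97.4 kb on chromosome 5 to 283 kb on XL, with 9 to 26 replicate 2 peaks inside. In replicate 2 the longest was 126 kb on neoX, bases 1371062 to 1496747, and held 0 replicate 1 peaks. That of chromosome 4, 118 kb at bases 11661531 to 11779358, also held 0. Those of the other chromosomes held 1 on XL, chromosome 2 and chromosome 5 and 4 on XR. Of 1364 windows of 100 kb, 116 held no replicate 1 center (8.50%) and 0 held no replicate 2 center.

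Window counts of the 2 replicates were weakly related. Over the 133 windows Pearson's r was 0.30 and Spearman's rho 0.19, given as a description because windows share chromosomes and uniquely alignable sequence. Counting error lowers r, the more so the nearer the variance over mean is to 1, and that stood at 1.15 and 1.69. How far it lowered r here was not tested, so a low r need not mean that the replicates differ. Within chromosomes r ran from -0.16 on XR and -0.06 on XL through 0.20 on chromosome 2 to 0.54 on neoX and 0.61 on chromosome 4. The last 2 leaned on the windows named above. Without its first window neoX had r = 0.37, without its 2 sparse windows chromosome 4 had 0.42, and without all 3 the whole set had 0.16. A smaller window lowered r, to 0.13 at 100 kb, and a larger raised it, to 0.42 at 2 Mb. The variance over mean moved in the same way, from 1.04 and 1.05 at 100 kb to 1.25 and 1.90 at 2 Mb.

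Window counts of wide peaks had r = 0.50 (rho 0.32) between replicates, against 0.11 for the middle class and -0.02 for peaks of 1000 bp. On neoX r was 0.79, on XL 0.52, on chromosome 2 0.44, on XR 0.35 and on chromosome 4 0.31. Spearman's rho was lower on each, at 0.59, 0.38, 0.24, -0.02 and 0.25 in the same order, so that on XR no relation was left by rank. Leaving out any single window kept the whole-genome r between 0.46 and 0.52, and leaving out the first of neoX and the window at bases 13000001 to 14000000 of chromosome 2 gave 0.43. Ordered by their summed counts relative to the mean of each list, the top windows were that chromosome 2 window and the first megabases of neoX and of XR, the last with 11 and 26 wide peaks. Next came 2 windows of XL, bases 1000001 to 2000000 with 9 and 24 and bases 4000001 to 5000000 with 9 and 22.

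**Figure D3:**
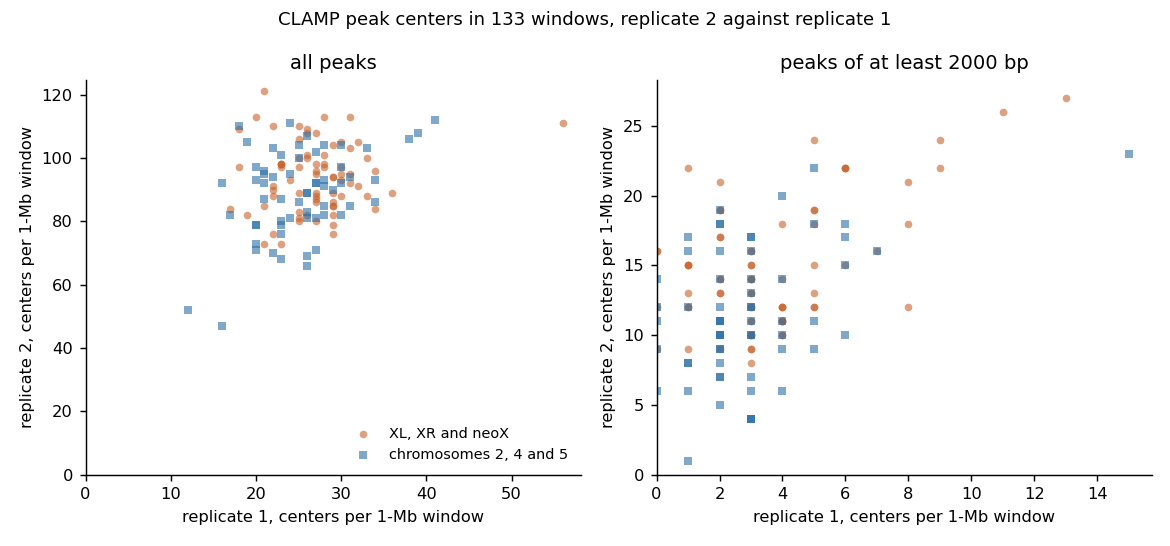
Peak centers per 1-Mb window in replicate 2 (vertical axis) against replicate 1 (horizontal axis), each point a window of an X chromosome (circles) or an autosome (squares), for all peaks and for wide peaks. All peaks form a cloud with r = 0.30 and 3 outlying windows, and wide peaks have r = 0.50 and rho = 0.32.

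At the scale of single peaks, the replicates met more often than the covered length alone would give. Centers of replicate 1 peaks lay inside a replicate 2 peak in 945 of 3577 cases, 26.4% (24.98 to 27.9), while replicate 2 peaks covered 14.2% of the chromosomes. The ratio of these, the fold enrichment, was 1.85 (1.75 to 1.96). In the other direction it was 1.78 (1.67 to 1.90), from 857 of 12523 centers, or 6.84%. This measure uses a point for each peak of 1 list, so a wide peak there does not gain directly from its own width. Peaks of the other list keep their widths, and widths were related between replicates (rho = 0.24 over 1208 overlapping pairs). Whether wide peaks gained by meeting wider peaks was not tested. The remaining centers, 2632 of replicate 1 and 11666 of replicate 2, lay outside the peaks of the other list.

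Agreement was similar across chromosomes. Folds for replicate 1 centers were 2.06 (1.81 to 2.32) on XL, 1.78 (1.57 to 1.99) on XR, 1.87 (1.62 to 2.14) on neoX, 1.76 (1.56 to 1.98) on chromosome 2 and 1.77 (1.54 to 2.02) on chromosome 4. Chromosome 5 had the highest, 2.64 (1.84 to 3.50) from 25 of 61 centers, with an interval that overlapped those of all the others. The X chromosomes together had 1.89 (1.76 to 2.03) and autosomes 1.81 (1.65 to 1.97), and in the reverse direction both had 1.78.

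Agreement differed between width classes. Of wide replicate 1 peaks, 242 of 461 centers, or 52.5% (47.8 to 57.1), lay inside a replicate 2 peak, a fold of 3.66 (3.34 to 3.99). The fold was 1.76 (1.63 to 1.90) for the middle class and 1.26 (1.11 to 1.43) for peaks of 1000 bp. In replicate 2 the folds were 4.44 (4.003 to 4.91), 1.38 (1.26 to 1.51) and 1.03 (0.803 to 1.29). Peaks of 1000 bp in replicate 2 thus met replicate 1 about as often as the covered length would give. The excess for wide peaks held on the X chromosomes, at 3.72 (3.30 to 4.13) and 4.58 (4.01 to 5.19), and on autosomes, at 3.58 (3.05 to 4.12) and 4.23 (3.55 to 4.99). On chromosome 5, 10 of 15 wide peaks of replicate 1 and 14 of 31 of replicate 2 were met in this way.

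**Figure D4:**
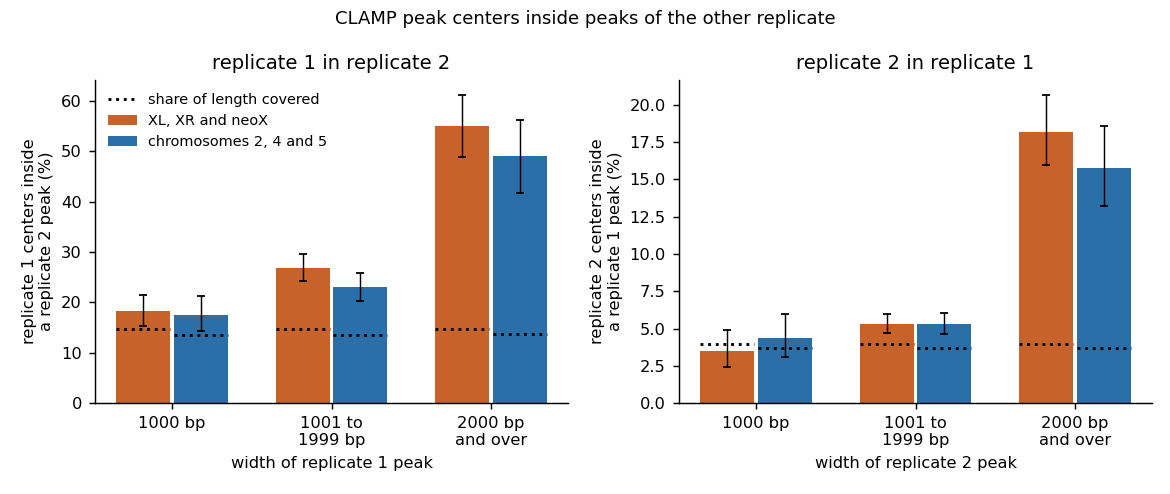
Share of peak centers of a replicate that lie inside a peak of the other (bars, percent) by peak width, on X chromosomes and autosomes; error bars are exact binomial 95% intervals and dotted lines give the share of length that the other list covers. Wide peaks reach 55.1% and 49.0% for replicate 1 and 18.2% and 15.8% for replicate 2. The narrowest class lies nearest the dotted lines, with intervals above them for replicate 1 and across them for replicate 2.

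The deposited value, taken to be the log2 of ChIP over input tag counts, did not order peaks in the same way. Median values were 3.96 in replicate 1 and 1.90 in replicate 2. Peaks of 1000 bp had the highest median, 4.55 and 2.24, against 3.84 and 1.94 for wide peaks and 3.55 and 1.82 for the middle class. Across peaks, Spearman's rho of width and value was -0.48 and -0.30, and it was negative on each chromosome in both lists. Over 1208 pairs in which a peak of each list overlapped a single peak of the other, values had rho = 0.25 and widths rho = 0.24 between replicates.

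Peaks of lower value met the other replicate more often. Each list was cut by value into 3 groups. In replicate 1 the group of lowest value had 33.4% (30.9 to 35.96) of centers inside a replicate 2 peak and the group of highest value 20.3% (18.0 to 22.7). In replicate 2 the shares were 9.44% (8.57 to 10.4) and 4.95% (4.29 to 5.67). Wide peaks of low value agreed most, with 130 of 192 centers, or 67.7% (60.6 to 74.3), for replicate 1 and 141 of 547, or 25.8% (22.2 to 29.7), for replicate 2. These classes were set after the values were seen.

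Few distinct values occurred in replicate 1. There were 300 among 3577 peaks, and the 7 most common took 56.0% of the list. On a linear scale these 7 stood at 2, 3, 4, 5, 6, 8 and 10 eighths of the most common. Replicate 2 had 929 distinct values among 12523 peaks. Ranks by value in replicate 1 therefore contain many ties.

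Median values of X and autosomal peaks were compared within each list, as a description with no test. The median value on XL, XR and neoX minus that on autosomes was 0, 0.17 and 0.22 in replicate 1, where the interquartile range of the list was 1.32. In replicate 2 the differences were -0.04, 0.02 and -0.01, with an interquartile range of 0.66. The difference was positive in both lists for XR only.

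Peak centers of the replicates were aligned on a scale below 1 kb. Within 250 bp of a replicate 1 center, replicate 2 centers were 1.98 times as dense as on average over the chromosome, from 250 to 500 bp 1.80 times and from 500 to 1000 bp 1.31 times. From 1 to 2 kb the figure was 1.05 and from 20 to 50 kb 1.01. Around wide replicate 1 peaks the density within 250 bp was 4.44 times the average, and around peaks of 1000 bp 1.18 times. The X chromosomes and the autosomes had 2.07 and 1.86 in the nearest step, from 191 and 134 pairs of centers. The nearest replicate 2 center lay at a median of 2492 bp from a replicate 1 center and within 200 bp for 268 of 3577.

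**Figure D5:**
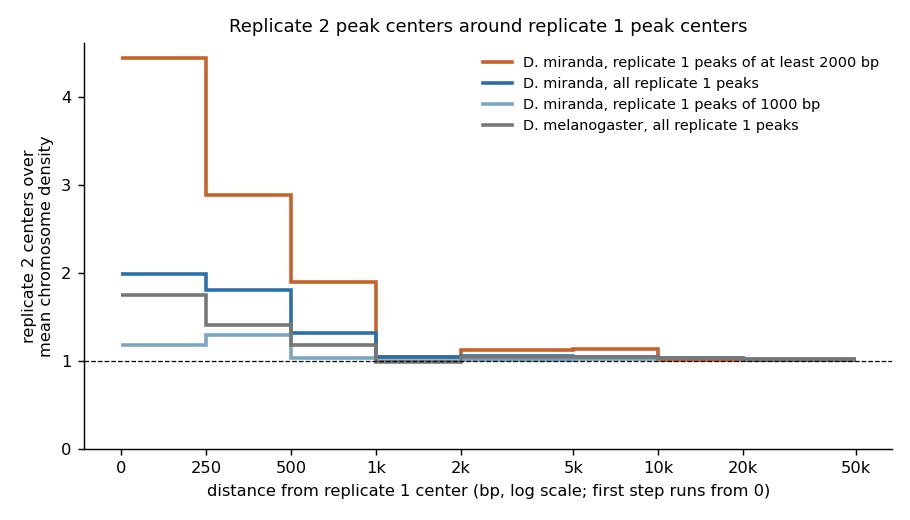
Density of replicate 2 peak centers at a given distance from replicate 1 peak centers (horizontal axis, bp, log scale) divided by the mean density of the chromosome (vertical axis), for all, wide and narrowest D. miranda peaks and for D. melanogaster. The excess is highest for wide peaks, at 4.44, and is at 1.05 for all D. miranda peaks from 1 to 2 kb.

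Peaks wide in both replicates were few, and densest per Mb on the dot chromosome. Of the 1208 pairs, 255 were wide in replicate 1, 405 in replicate 2 and 149 in both. These 149 lay at 1.09 (0.695 to 1.61) per Mb on XL, 1.23 (0.865 to 1.69) on XR, 1.29 (0.853 to 1.88) on neoX, 0.970 (0.663 to 1.37) on chromosome 2 and 0.660 (0.397 to 1.03) on chromosome 4. Chromosome 5 held 10 of them on 1.77 Mb, or 5.64 (2.70 to 10.4) per Mb, and its interval lay above those of the other chromosomes. Over all peaks its density was the highest in replicate 1, 34.4 per Mb (26.3 to 44.2), but not in replicate 2, 90.2 (76.8 to 105). How much of chromosome 5 could be aligned uniquely was not tested. The X to autosome ratio of the 149 was 1.25 (0.895 to 1.77), an interval that includes 1.

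The widest and the highest peaks of each list lay at different places. The widest peak of replicate 1 covered 8101 bp of neoX, bases 5384079 to 5392179, at a value of 1.59, and that of replicate 2 covered 8065 bp of chromosome 2, bases 15792878 to 15800942, at 0.77. Each overlapped a peak of the other replicate by at least 1 bp, a measure that a wide peak meets more easily. The highest value of replicate 1, 6.77, was tied between XR 21078358 to 21079400 and neoX 4091634 to 4093633. In replicate 2 it was 4.69, tied between XL 1001195 to 1003400, XL 1598810 to 1600835 and neoX 10720644 to 10722643. None of these 5 peaks overlapped a peak of the other list. Among all peaks, 2632 of 3577 replicate 1 centers and 11666 of 12523 replicate 2 centers lay outside the other list. A center inside a peak is a stricter measure than overlap by 1 bp, so these shares are no base rate for the 5 peaks. Whether the highest peaks overlapped the other list less often than other peaks was not tested.

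Overlapping peaks merged into 1300 regions with peaks of both replicates, and 24 of these ranked within the top 10% by value in both lists, 50 within the top 20% and 297 within the top 50%. These counts are given with no test. Counts for unrelated ranks were not computed, so agreement between high values cannot be read from these. In both lists the group of highest value met the other replicate least often. The first region by the worse of its 2 ranks was XR 14855276 to 14857612, at values of 5.55 and 3.38. It was followed by XL 20416433 to 20419485 at 5.28 and 3.02, and by chromosome 2 at 10067438 to 10069566 with 5.28 and 2.94. The fourth was chromosome 2 at 7722694 to 7723736, at 5.55 and 2.90, inside the dense window named above. The fifth was XR 4124159 to 4128262, at 5.28 and 2.84, where 1 replicate 1 peak met 2 replicate 2 peaks.

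Set beside D. melanogaster, the D. miranda lists overlapped in 7 of 8 measures, and the relation of width to value was the exception. Peak density was 26.2 and 91.6 per Mb in D. miranda and 74.7 and 70.0 in D. melanogaster, and covered share 3.84% and 14.2% against 10.9% and 11.2%, so that the D. melanogaster lists fell between the D. miranda ones in both. The share of wide peaks was 12.9% and 14.6% against 12.97% and 14.2%. The width to value relation was negative in both D. miranda lists, at -0.48 and -0.30, and lay below both D. melanogaster lists, at 0.59 and -0.23. With 2 libraries against 2, an exact two-sided permutation test cannot go below p = 0.333. It gave 0.333 for the width to value relation and 0.667 or 1 for the other 7 measures. Over windows, the D. melanogaster replicates had r = 0.26 on 117 windows.

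The replicate folds of D. miranda were higher than those of D. melanogaster. Over all peaks they were 1.85 (1.75 to 1.96) and 1.78 (1.67 to 1.90) against 1.47 (1.40 to 1.54) and 1.49 (1.42 to 1.57), and for wide peaks 3.66 (3.34 to 3.99) and 4.44 (4.003 to 4.91) against 2.50 (2.28 to 2.74) and 2.72 (2.48 to 2.96). These intervals did not overlap, but each species has a single pair of replicates, so the difference has no replicate check. D. melanogaster showed the same order of width classes, with 1.16 and 1.02 for peaks of 1000 bp.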

How the data were processed

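CLAMP ChIP-seq peaks of 2 D. miranda and 2 D. melanogaster libraries were analysed. According to the methods and labels, chromatin of sexed larvae was sequenced as paired ends, and the authors aligned reads (the labels name Bowtie) keeping unique alignments, removed positions with anomalous tag counts, normalized by library size and called peaks for each replicate with SPP at default settings. For each peak the authors deposited coordinates and an unnamed value, taken to be the log2 of ChIP over input tag counts. Labels give dm3 for all libraries. The methods give a published D. miranda assembly, whose Muller names the lists carry. Starts were taken to count from 0. Peaks on unassembled D. melanogaster sequence were left out.

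Chromosome length was taken up to the last peak found by either replicate. Unalignable sequence was not removed. Window, overlap (1 bp) and center measures were computed with Python 3.11.15, numpy 2.4.6, pandas 2.3.3 and scipy 1.17.1, and tested on simulated lists. Intervals are 95% exact Poisson, binomial or conditional. Named windows, stretches, peaks and regions are the 3 densest and 3 sparsest windows of each replicate, the longest peak-free stretches, the widest and highest peaks, and the 5 regions best ranked in both lists. The windows ranked by wide peaks were chosen after their values were seen. Members and measures were chosen with earlier results of these data known, and the width classes, value classes and distance steps after seeing the lists.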

Additional observations from a re-analysis of the deposited data

How the results depend on the processing

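No paired analysis was possible because replicate numbers join no samples across species and inputs have no lists. Of 100 alternative values, 72 stayed within a spread or kept their direction, 18 moved beyond the spread and 10 changed sign. The spread was the SD between replicates, except the interval for the fold of centers and the SD over the 5 large chromosomes, 0.345, for window correlation. That last is wide, and the 10 alternative correlations within it ran from 0.13 to 0.50 around 0.30.

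The X to autosome density ratio, as the geometric mean of replicates, was 1.06 for XL, 1.05 for XR and 1.05 for neoX. By base pairs covered it moved to 1.11 for XL and 1.09 for neoX. In the peaks with the highest values, 55.5% and 50.5% of the lists with ties kept, it moved to 1.02, 1.11 and 1.13 for XL, XR and neoX. With limits chosen after seeing the data it moved to 1.25, 1.16 and 1.27 for peaks of at least 2000 bp, 1.62, 1.26 and 1.49 at 2500 bp, and 1.44, 1.44 and 1.62 at 3000 bp. Without a replicate it ran from 1.04 to 1.09 for XL, 1.03 to 1.07 for XR and 1.04 to 1.07 for neoX.

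The fold of replicate 1 centers, 1.85, moved to 2.04 for centers within 200 bp, 1.55 in the peaks with the highest values and 3.66 for wide peaks. The dispersion of replicate 2 moved from 1.69 to 1.05 in 100-kb windows.

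Species differences changed sign for 7 of 8 measures when 1 library was left out. The difference in median width (-65.0 bp) ran from -172.5 bp without D. melanogaster replicate 1 to 42.5 bp without replicate 2. That in the share of narrowest peaks (7.61 percentage points) became -0.850 without D. miranda replicate 1 and -2.86 without D. melanogaster replicate 2. The share of wide peaks (0.139) ran from -0.704 to 0.981 without D. miranda replicate 2 or 1, and was -0.479 without D. melanogaster replicate 1. Without D. miranda replicate 2 or 1, density (-13.5 per Mb) ran from -46.2 to 19.2, covered share (-2.05 percentage points) from -7.24 to 3.14 and median value (0.26) from 1.30 to -0.77. Median value was -0.19 without D. melanogaster replicate 2. Dispersion (-0.408) ran from -0.863 to 0.0464 without D. melanogaster replicate 2 or 1. The width to value difference kept its sign. The cause of these changes was not tested. The lists hold no read depth, and how far the depth given in the study's methods limited replicate 1 was not tested.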
